A study of Mus musculus with 19 samples.

Results

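The genes described are the voltage-gated, calcium-gated and inward rectifier potassium channels of sensory neurons, with their auxiliary subunits. They were chosen by symbol: every symbol made of Kcn, 1 or more lower-case letters and a number was taken, apart from the Kcnk leak channels. The table of 18666 genes held 80 such members. Of these, 52 reached 1 FPKM (fragments per kilobase of exon scaled to the size of the library, a level per transcript length) in at least 4 of the 19 libraries and were tested, among 11996 genes tested in all. Along with channel subunits the symbols take in 3 RNAs that overlap a channel gene on the other strand (Kcnd3os, Kcnmb4os1 and Kcnq1ot1) and Kcne1l, which the table describes as a pseudogene. The filter lay at low levels: members such as Kcne1l, Kcnq3 and Kcnt2 reached 1 FPKM in exactly 4 libraries, while Kcng1, Kcng2, Kcng4, Kcnj15 and Kcnn4 reached it in 2 and were not tested.

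The libraries came from dorsal root ganglion neurons of male C57BL/6 mice, 2 months old, that carried a genetic GFP label of MrgprA3, a receptor whose neurons respond to pruritogens. Mice with allergic contact dermatitis (ACD) gave 4 libraries of MrgprA3+ neurons and 5 of MrgprA3- neurons. Control mice gave 5 libraries of MrgprA3+ neurons and 5 of MrgprA3- neurons. These are the groups compared below. The 19 libraries hold no replicate 3 of MrgprA3+ neurons of ACD mice. Dermatitis was induced with 0.5% squaric acid dibutylester on the abdomen on days 1 to 3 and on the lower back on days 8 to 12, controls had its solvent acetone only, and 16 ganglia per mouse were taken on day 13, per the labels. MrgprA3+ neurons were sorted by GFP and MrgprA3- cells by a gate set on the shape of the GFP+ cells, so that the MrgprA3- group is a mixture of the other sensory neurons that fit this gate. The labels state that both populations were taken from each of 5 mice per treatment, without saying which library came from which mouse. In a bulk library, fewer cells that use a gene and less of its RNA per cell cannot be told apart.

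Estimated depth lay between 10.2 and 21.0 M (mega) fragments per library, and at the lowest depth 1 FPKM corresponded to 8.4 fragments for the shortest and 39.985 for the median tested member. The label was checked by Mrgpra3 itself, which averaged 940.1 ± 101 FPKM in MrgprA3+ and 19.96 ± 3.97 FPKM in MrgprA3- libraries of ACD mice (SD, n = 4 and 5), and 1131 ± 197 against 20.2 ± 4.12 FPKM in control mice (SD, n = 5 each). All 14 genes of a list of general neuronal markers passed the filter, which counts libraries of either population. In the test described below, 5 of them were higher and 3 lower in MrgprA3+ neurons of ACD mice. In control mice 4 were higher and 3 lower. Of all genes 6.84% were higher and 15.2% lower in ACD mice, and 8.64% and 18.4% in control mice. Between 13448 and 14360 genes were above 0 in each MrgprA3+ library, against 15534 to 16163 in each MrgprA3- library.

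Potassium channels let potassium out of the cell along its gradient, which repolarises the membrane after an action potential and sets how easily the next one starts. The channel families differ in what opens them. Kv channels open on depolarisation, BK and SK channels respond to intracellular calcium, Slack channels to intracellular sodium, and inward rectifiers pass current near the resting potential. In sensory neurons Kv1 channels set the firing threshold, Kv4 channels with their KChIP partners carry the fast transient A-type current, Kv7 channels carry the M-current, and BK channels shorten the spike.

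A few members carried most of the potassium channel RNA. Summed over all 80 members, the level was 1045 ± 66.0 FPKM in MrgprA3+ and 1142 ± 45.7 FPKM in MrgprA3- libraries of ACD mice (SD, n = 4 and 5), and 1066 ± 88.4 against 1212 ± 64.5 FPKM in control mice (SD, n = 5 each). The 2 highest members in every group were Kcnip4 and Kcnip2, which encode the calcium-binding KChIP4 and KChIP2 that join Kv4 channels. Next came Kcnmb1, the BK beta1 subunit, in MrgprA3+ neurons and Kcnab1, the Kv beta1 subunit, in MrgprA3- neurons, in both treatments. Kcnmb1 made up 15.2% of the summed member level in MrgprA3+ against 4.24% in MrgprA3- libraries of ACD mice. The next in order was Kcnd1, the pore subunit Kv4.1. In each group 3 members averaged at least 100 FPKM, and between 35 and 46 members averaged at least 1 FPKM.

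**Figure D1:**
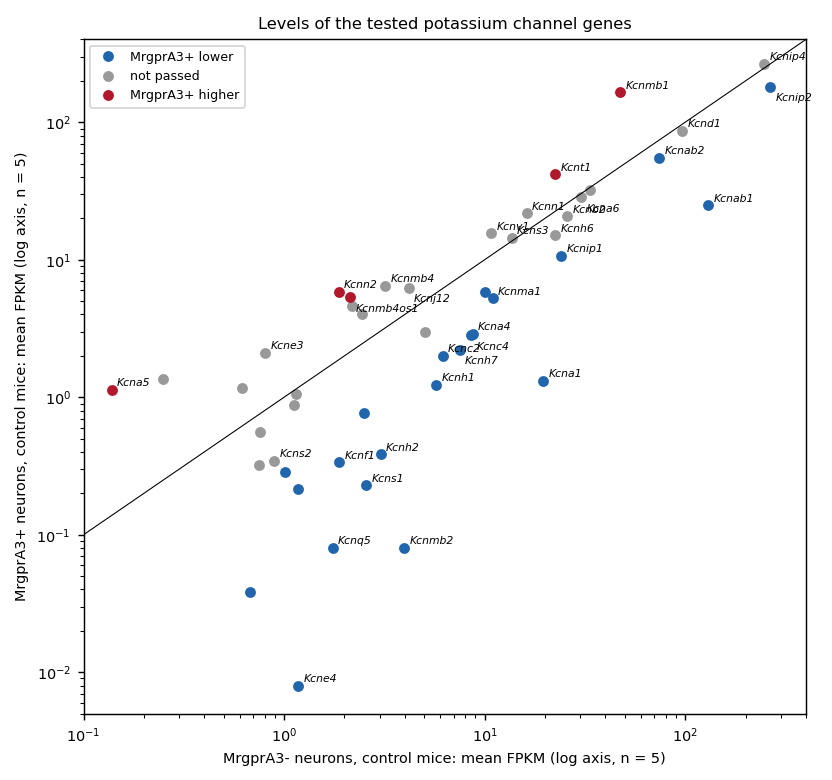
Mean FPKM of 49 tested members in MrgprA3+ (vertical) against MrgprA3- neurons (horizontal) of control mice, both on log axes, with the line of equal level. Red points passed the test as higher in MrgprA3+ neurons, blue ones as lower and grey ones did not pass. Kcnmb1 (166 against 47.3 FPKM) lies above the line among the abundant members, Kcnab1 (24.9 against 129.9 FPKM) and Kcna1 lie below it, and most blue points lie under 10 FPKM in MrgprA3- neurons.

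The question of the population comparison is which of these genes differ between MrgprA3+ and MrgprA3- neurons. Differences are given as MrgprA3+ minus MrgprA3- mean log2(FPKM + 1), a scale that understates the change of genes near or under 1 FPKM, and a gene is called where the adjusted p over all 11996 genes was below 0.05 in limma. In ACD mice 31 of 52 members were called, 6 higher and 25 lower in MrgprA3+ neurons. Over all genes 22.1% were called in that comparison, 6.84% as higher and 15.2% as lower. In control mice 29 of 52 were called, 5 higher and 24 lower, where 27% of all genes were called, 8.64% as higher and 18.4% as lower. The median difference of the tested members was -0.55 in ACD and -0.52 in control mice, against -0.12 and -0.14 over all genes tested. The comparisons in ACD and in control mice contrast different libraries, but both take the spread of each gene from all 19 libraries. They are thus not fully independent comparisons. In both of them 22 members were lower and 3, Kcna5, Kcnmb1 and Kcnt1, were higher in MrgprA3+ neurons, 6 were called in ACD mice alone, 4 in control mice alone and 17 in neither. Lower in both were thus 42.3% of the members, against 11.1% of all genes, and higher in both 5.77% of the members, close to the 5.11% of all genes. These shares are for the values as deposited. Called in ACD mice alone were 11.5% of the members and 5.88% of all genes, and in control mice alone 7.69% of the members and 10.8% of all genes. No member passed the test of a difference between the treatments, the interaction (values are given with dermatitis).

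The split between higher and lower calls moved with the scaling of the libraries, while no called member changed direction under either rescaling. With median-ratio rescaling 6 members (11.5%) were higher and 23 (44.2%) lower in ACD mice, and 9 (17.3%) were higher and 22 (42.3%) lower in control mice. Of all genes this rescaling called 9.82% as higher and 12.3% as lower in ACD mice, and 11.9% and 14.4% in control mice. Quantile normalization gave 7 members (13.5%) higher and 16 (30.8%) lower in ACD mice, and 12 (23.1%) higher and 16 (30.8%) lower in control mice. It called 9.92% of all genes as higher and 10.8% as lower in ACD mice, and 12.8% and 12.7% in control mice. As deposited, 9.62% of the members were higher in control mice. The median difference over all genes in control mice was -0.14 as deposited, -0.04 with median-ratio rescaling and 0.04 with quantile normalization.

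**Figure D2:**
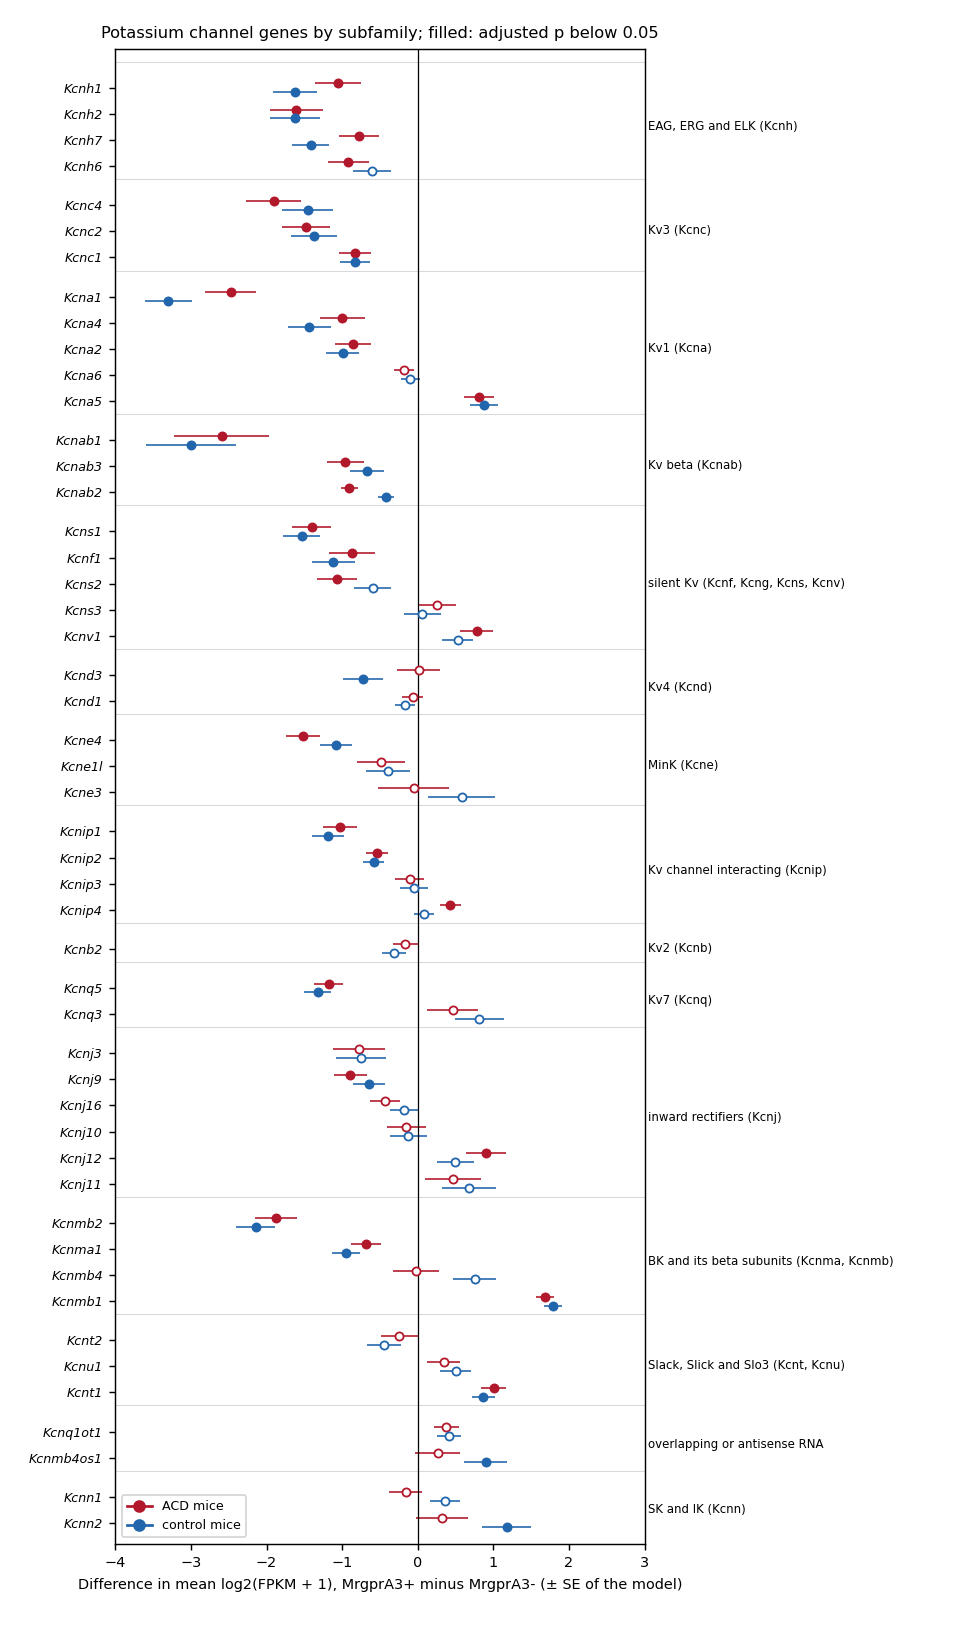
Difference between MrgprA3+ and MrgprA3- neurons in mean log2(FPKM + 1) for 49 tested members, grouped by subfamily, with bars of 1 standard error of the model. Red is ACD mice, blue control mice, and filled points have an adjusted p below 0.05. Points lie left of 0 for most EAG, Kv3, Kv1 and Kv beta members, with Kcna1 farthest left, and right of 0 for Kcnmb1, Kcnt1 and Kcna5 in both treatments.

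Subunits of the calcium-activated BK channel went in opposite directions between the populations. Kcnmb1, which encodes the beta1 subunit known to raise the calcium sensitivity of the channel and best known from smooth muscle, was higher in MrgprA3+ neurons. It stood at 159, 130.3, 184 and 163 FPKM in the MrgprA3+ libraries of ACD mice, against 44.6, 50.6, 45.8, 50.5 and 50.8 FPKM in their MrgprA3- libraries. In control mice it stood at 195, 163, 139, 171 and 160.0 FPKM in MrgprA3+ libraries, against 52.3, 53.6, 42.97, 48.6 and 38.8 FPKM in MrgprA3- libraries. Every MrgprA3+ library lay above every MrgprA3- library. The difference was 1.69 (SE 0.12, adjusted p = 1.02e-09) in ACD mice and 1.79 (SE 0.11, adjusted p = 8.64e-11) in control mice, or 3.28-fold and 3.5-fold in mean FPKM.

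Kcnma1, which encodes the pore-forming subunit itself, was lower in MrgprA3+ neurons. Its level was 4.2, 4.87, 5.71 and 5.32 FPKM in MrgprA3+ and 7.94, 7.42, 8.34, 11.1 and 8.84 FPKM in MrgprA3- libraries of ACD mice. In control mice Kcnma1 had 4.98, 3.68, 7.51, 4.82 and 5.19 FPKM in MrgprA3+ libraries, against 13.5, 10.9, 12.2, 9.83 and 8.36 FPKM in MrgprA3- libraries. The populations again did not overlap, and the difference was -0.69 (SE 0.20, adjusted p = 0.0165) in ACD mice and -0.95 (SE 0.19, adjusted p = 0.00064) in control mice. The call in ACD mice was lost without MrgprA3- replicate 4 (-0.60, adjusted p = 0.0517). As a description, the ratio of Kcnmb1 to Kcnma1 in FPKM averaged 31.8 ± 4.57 in MrgprA3+ and 5.65 ± 0.81 in MrgprA3- libraries of ACD mice (SD, n = 4 and 5), and 33.6 ± 9.76 against 4.38 ± 0.65 in control mice (SD, n = 5 each).

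The other BK beta subunits had patterns of their own. Kcnmb2, whose beta2 subunit makes BK channels inactivate, was lower in MrgprA3+ neurons, with 0.54, 0.07, 1.06 and 1.09 FPKM in ACD mice against 6.94, 5.13, 2.7, 4.77 and 6.43 FPKM in MrgprA3- libraries. The corresponding values in control mice were 0.02, 0.06, 0, 0.09 and 0.23 FPKM in MrgprA3+ and 3.4, 6.41, 4.38, 3.45 and 2.13 FPKM in MrgprA3- libraries. Again the populations were fully apart, with differences of -1.88 (SE 0.27, adjusted p = 2.64e-05) in ACD mice and -2.14 (SE 0.26, adjusted p = 1.44e-06) in control mice. Kcnmb4, the beta4 subunit of neuronal BK channels, did not pass in either treatment, at -0.03 in ACD mice and 0.75 (SE 0.29, adjusted p = 0.0581) in control mice. It passed in control mice as higher in MrgprA3+ neurons under both rescalings (0.84 with median-ratio rescaling and 0.96 with quantile normalization), and without MrgprA3+ replicate 1 (1.01, adjusted p = 0.00735) or MrgprA3- replicate 5 (0.86, adjusted p = 0.0485). Kcnmb4 shares 355 of its 3324 exon bases with Kcnmb4os1 on the opposite strand, and whether the counting used strand is not given. Kcnmb3 was not tested, having reached 1 FPKM in a single library. Of the BK gamma subunits, which shift BK activation to lower voltages, Lrrc55 was tested and did not pass, at -0.12 in ACD and -0.50 in control mice.

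**Figure D3:**
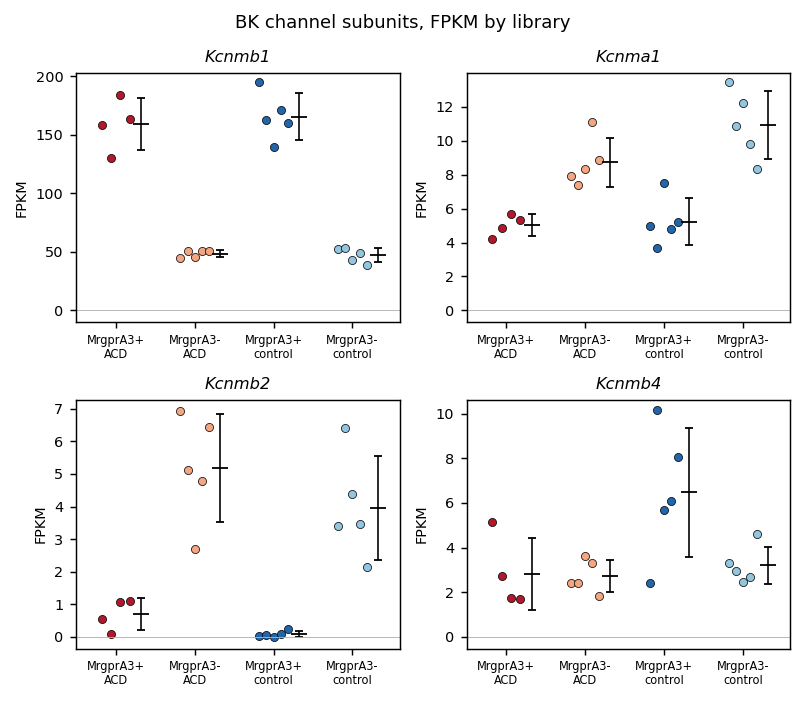
FPKM of the 4 tested BK subunits in each library (points) with the mean and SD of the group (bars), on linear axes. Kcnmb1 lies at 130.3 to 184 FPKM in MrgprA3+ against 44.6 to 50.8 FPKM in MrgprA3- libraries of ACD mice, Kcnma1 and Kcnmb2 lie lower in MrgprA3+ neurons, and Kcnmb4 overlaps.

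Because Kcnmb1 is also a gene of vascular smooth muscle, markers of endothelial and mural cells are given beside it. Of 12 such markers 3 were tested. Rgs5, known from pericytes, was higher in MrgprA3+ neurons, at 79.2 FPKM in MrgprA3+ against 9.96 FPKM in MrgprA3- libraries of ACD mice and 56.1 FPKM in MrgprA3+ against 12.3 FPKM in MrgprA3- libraries of control mice. Esam, an endothelial adhesion gene, was higher as well, at 43.03 FPKM in MrgprA3+ against 7.72 FPKM in MrgprA3- libraries of ACD mice and 38.8 FPKM in MrgprA3+ against 6.77 FPKM in MrgprA3- libraries of control mice. Pdgfrb, a pericyte receptor, was lower, at 3.08 FPKM in MrgprA3+ against 7.94 FPKM in MrgprA3- libraries of ACD mice and 3.15 FPKM in MrgprA3+ against 6.62 FPKM in MrgprA3- libraries of control mice. The summed level of the 12 was 103 to 144 FPKM in MrgprA3+ against 22.6 to 29.7 FPKM in MrgprA3- libraries of ACD mice, and 56.4 to 123 against 22.5 to 30.7 FPKM in control mice. Rgs5 and Esam made up most of these sums, and most of the other markers averaged lower in MrgprA3+ libraries. Defining markers of smooth muscle were near 0: Myh11 was listed at 0 in every MrgprA3+ library, and Acta2 averaged 0.045 FPKM in MrgprA3+ against 0.13 FPKM in MrgprA3- libraries of ACD mice and 0.01 against 0.17 FPKM in control mice. Of the endothelial genes, Cldn5 averaged 0.88 FPKM in MrgprA3+ libraries of ACD mice, with 3.43 FPKM in the highest of them, against 0.21 FPKM in MrgprA3- libraries, and 0.022 against 0.18 FPKM in control mice. Pecam1 averaged 0.105 FPKM in MrgprA3+ against 0.65 FPKM in MrgprA3- libraries of ACD mice and 0.02 against 0.93 FPKM in control mice, and Cdh5 averaged at most 0.026 FPKM in any group. Whether such cells contributed to the Kcnmb1 level was not tested.

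The sequence before the start of Kcnmb1 is shown because this gene had the smallest adjusted p of all members in both treatments. The 250 bases upstream of its RefSeq start lie at chr11:33962763-33963012 on the + strand of GRCm38.p6, in no annotated exon. They hold 1 CG dinucleotide, set in capitals (CG reads the same on both strands). Among 32851 RefSeq promoter windows of this length 7.87% held none, and the median was 6. The corresponding windows of Kcnmb2 and Kcnma1 held 8 and 31, and both overlap annotated exons. This is a description of the letters only, and no methylation or binding was measured.
Kcnmb1: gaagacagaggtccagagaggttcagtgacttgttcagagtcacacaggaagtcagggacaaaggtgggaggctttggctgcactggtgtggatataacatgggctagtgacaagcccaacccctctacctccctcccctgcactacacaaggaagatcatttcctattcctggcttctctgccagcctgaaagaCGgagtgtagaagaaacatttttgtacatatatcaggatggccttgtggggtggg

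Among the other channels opened by intracellular ions, the sodium-activated Slack channel gene Kcnt1 was higher in MrgprA3+ neurons. It had 36.96, 50.1, 34.9 and 33.5 FPKM in MrgprA3+ and 16.97, 19.9, 20.9, 18.6 and 17.3 FPKM in MrgprA3- libraries of ACD mice. For control mice the values were 33.5, 45.02, 54.5, 40.7 and 35.8 FPKM in MrgprA3+ libraries, against 27.6, 20.9, 22.2, 17.5 and 24.3 FPKM in MrgprA3- libraries. No MrgprA3+ library fell within the range of the MrgprA3- libraries, and the difference was 1.0019 (SE 0.16, adjusted p = 8.82e-05) in ACD mice and 0.87 (SE 0.15, adjusted p = 0.00017) in control mice. Its relatives Kcnt2 (Slick, -0.24 in ACD and -0.45 in control mice) and Kcnu1 (Slo3, known from sperm, 0.34 in ACD and 0.50 in control mice) did not pass in ACD or control mice. The Kcnu1 libraries did not overlap in ACD mice, and there it passed as higher with quantile normalization (0.59, adjusted p = 0.0375). In control mice Kcnu1 passed as higher under both rescalings and without MrgprA3+ replicate 4 (0.63, adjusted p = 0.0214), and Kcnt2 as lower without MrgprA3+ replicate 3 (-0.63, adjusted p = 0.037).

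The small-conductance SK channels carry afterhyperpolarisations that slow repetitive firing. Kcnn1 (SK1) was the most abundant of them at 13.3 FPKM in MrgprA3+ against 14.6 FPKM in MrgprA3- libraries of ACD mice and 21.7 FPKM in MrgprA3+ against 16.2 FPKM in MrgprA3- libraries of control mice, and it did not pass. Kcnn2 (SK2) stood at 2.03, 4.48, 0.56 and 4.33 FPKM in MrgprA3+ and 1.33, 1.59, 1.23, 2.53 and 2.24 FPKM in MrgprA3- libraries of ACD mice, which overlap. In control mice it had 4.47, 2.59, 9.92, 4.68 and 7.6 FPKM in MrgprA3+ libraries, against 2.99, 1.68, 1.81, 1.61 and 1.25 FPKM in MrgprA3- libraries, also with an overlap. The difference was called in control mice, at 1.18 (SE 0.33, adjusted p = 0.00906), and not in ACD mice, at 0.32 (SE 0.35, adjusted p = 0.543). Kcnn3 and the intermediate-conductance Kcnn4 were not tested. Kcnn2 shares 284 exon bases with an RNA gene on the opposite strand, and whether the counting used strand is not given in the sources used here.

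Regulators shared by SK and Kv7 channels were listed with them. Of 9 tested, 2 were higher and 3 lower in MrgprA3+ neurons of ACD mice, and 3 were higher and 1 lower in control mice. Over all genes 6.84% were higher and 15.2% lower in ACD mice, and 8.64% and 18.4% in control mice. Calm2, which encodes calmodulin, the calcium sensor bound to SK channels, was higher in both treatments (0.66 in ACD and 0.65 in control mice). Calm3, which encodes the same protein, was lower (-0.59 in ACD and -0.43 in control mice).

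Kv1 channels and the cytoplasmic beta subunits bound to them were for the most part lower in MrgprA3+ neurons. Of the 5 Kv1 genes tested 3 were lower, 1 was higher and 1 did not pass, in each treatment, and all 3 Kv beta genes were lower in each treatment. Kcna1 (Kv1.1), which sets spike threshold in large sensory neurons, had the largest difference of all members in control mice. It stood at 1.7, 3.11, 2.54 and 6.64 FPKM in the MrgprA3+ libraries of ACD mice, against 13.6, 21, 31.1, 25.4 and 23.5 FPKM in MrgprA3- libraries. In control mice its level was 0.36, 0.14, 3.33, 1.48 and 1.25 FPKM in MrgprA3+ libraries, against 25.3, 16.8, 16.4, 22.3 and 17.1 FPKM in MrgprA3- libraries. The populations did not overlap in either treatment, and the difference was -2.48 (SE 0.33, adjusted p = 1e-05) in ACD mice and -3.30 (SE 0.32, adjusted p = 5.29e-08) in control mice.

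Kcna2 (Kv1.2), the usual partner of Kv1.1, was lower at 0.43 to 1.53 FPKM in MrgprA3+ against 1.74 to 3.12 FPKM in MrgprA3- libraries of ACD mice and 0.49 to 1.39 FPKM in MrgprA3+ against 1.88 to 3.19 FPKM in MrgprA3- libraries of control mice. Its differences were -0.86 (SE 0.23, adjusted p = 0.00956) in ACD mice and -0.99 (SE 0.22, adjusted p = 0.0015) in control mice, and the call in ACD mice was lost with quantile normalization. Kcna4 (Kv1.4), an inactivating channel of small nociceptors in the rat, was lower as well, with 2.42, 5.18, 3.69 and 1.95 FPKM in MrgprA3+ and 7.36, 6.17, 6.95, 6.69 and 9.56 FPKM in MrgprA3- libraries of ACD mice. Control mice had 2.39, 3.02, 5.52, 0.64 and 2.93 FPKM in MrgprA3+ and 7.99, 9.98, 10.6, 7.11 and 7.91 FPKM in MrgprA3- libraries. The Kcna4 differences were -1 (SE 0.30, adjusted p = 0.0176) in ACD mice and -1.43 (SE 0.28, adjusted p = 0.000504) in control mice, and the call in ACD mice was lost without MrgprA3+ replicates 1 or 5 or MrgprA3- replicate 5 (-0.91 to -0.84, adjusted p = 0.0518 to 0.0572).

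Kcna6 (Kv1.6) was the most abundant Kv1 gene, with libraries that overlapped between the populations, averaging 28.3 FPKM in MrgprA3+ against 32.4 FPKM in MrgprA3- libraries of ACD mice and 28.3 FPKM in MrgprA3+ against 30.4 FPKM in MrgprA3- libraries of control mice. Its differences of -0.18 (SE 0.13, adjusted p = 0.353) in ACD mice and -0.10 (SE 0.13, adjusted p = 0.606) in control mice did not pass. Kcna5 (Kv1.5) was low but higher in MrgprA3+ neurons, at 1.22, 0.72, 1.55 and 0.73 FPKM against 0.16, 0.04, 0.2, 0.18 and 0.21 FPKM in MrgprA3- libraries of ACD mice. In control mice the Kcna5 levels were 1.57, 1.63, 0.92, 0.55 and 1 FPKM in MrgprA3+ and 0.18, 0.15, 0.14, 0.09 and 0.13 FPKM in MrgprA3- libraries. These levels did not overlap either, and the difference was 0.81 (SE 0.19, adjusted p = 0.00406) in ACD mice and 0.88 (SE 0.18, adjusted p = 0.000896) in control mice. Kcna3, Kcna7 and Kcna10 were not tested.

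Kcnab1, whose Kv beta1 subunit can give Kv1 channels fast inactivation, was one of the most abundant members in MrgprA3- neurons. It stood at 16.99, 24.97, 5.99 and 42.7 FPKM in MrgprA3+ libraries of ACD mice, against 133, 89.8, 112, 127 and 126 FPKM in MrgprA3- libraries. Control mice gave 7.13, 2.54, 17.2, 32.2 and 65.5 FPKM in MrgprA3+ libraries, against 126, 120.1, 142, 123 and 139 FPKM in MrgprA3- libraries. The MrgprA3+ libraries were all lower, and they varied far more among themselves than the MrgprA3- libraries did. The difference was -2.60 (SE 0.63, adjusted p = 0.00657) in ACD mice and -3.001 (SE 0.59, adjusted p = 0.0011) in control mice. Kcnab2 (Kv beta2), which takes part in the axonal targeting of Kv1 channels, averaged 46.1 FPKM in MrgprA3+ against 87.3 FPKM in MrgprA3- libraries of ACD mice and 55.1 FPKM in MrgprA3+ against 74.1 FPKM in MrgprA3- libraries of control mice. It differed by -0.91 (SE 0.11, adjusted p = 2.84e-06) in ACD mice and -0.42 (SE 0.11, adjusted p = 0.00436) in control mice. Kcnab3 was low, and its differences of -0.96 in ACD and -0.67 in control mice did not pass with quantile normalization. The control call of Kcnab3 was also lost without MrgprA3+ replicates 2, 3 or 4 or MrgprA3- replicates 2 or 5 (-0.63 to -0.55, adjusted p = 0.0713 to 0.102).

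The proteins that hold Kv1 channels in place along axons were listed as well. Of 11 tested 1 was higher and 7 lower in MrgprA3+ neurons, in each treatment. Over all genes 6.84% were higher and 15.2% lower in ACD mice, and 8.64% and 18.4% in control mice. Lgi3, a secreted partner of Kv1 complexes, averaged 5.22 FPKM in MrgprA3+ against 18.5 FPKM in MrgprA3- libraries of ACD mice and 1.09 FPKM in MrgprA3+ against 14.01 FPKM in MrgprA3- libraries of control mice, with differences of -1.95 (SE 0.45, adjusted p = 0.00315) in ACD mice and -3.12 (SE 0.43, adjusted p = 7.61e-06) in control mice. Epb41l3, the cytoskeletal adaptor protein 4.1B, differed by -1.59 (SE 0.17, adjusted p = 3.42e-07) in ACD mice and -1.63 (SE 0.16, adjusted p = 5.72e-08) in control mice. The single higher gene was Lgi1, an epilepsy gene whose protein binds Adam22, at 60.9 FPKM in MrgprA3+ against 22.7 FPKM in MrgprA3- libraries of ACD mice and 60.4 FPKM in MrgprA3+ against 21.2 FPKM in MrgprA3- libraries of control mice (1.38 in ACD and 1.47 in control mice).

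**Figure D4:**
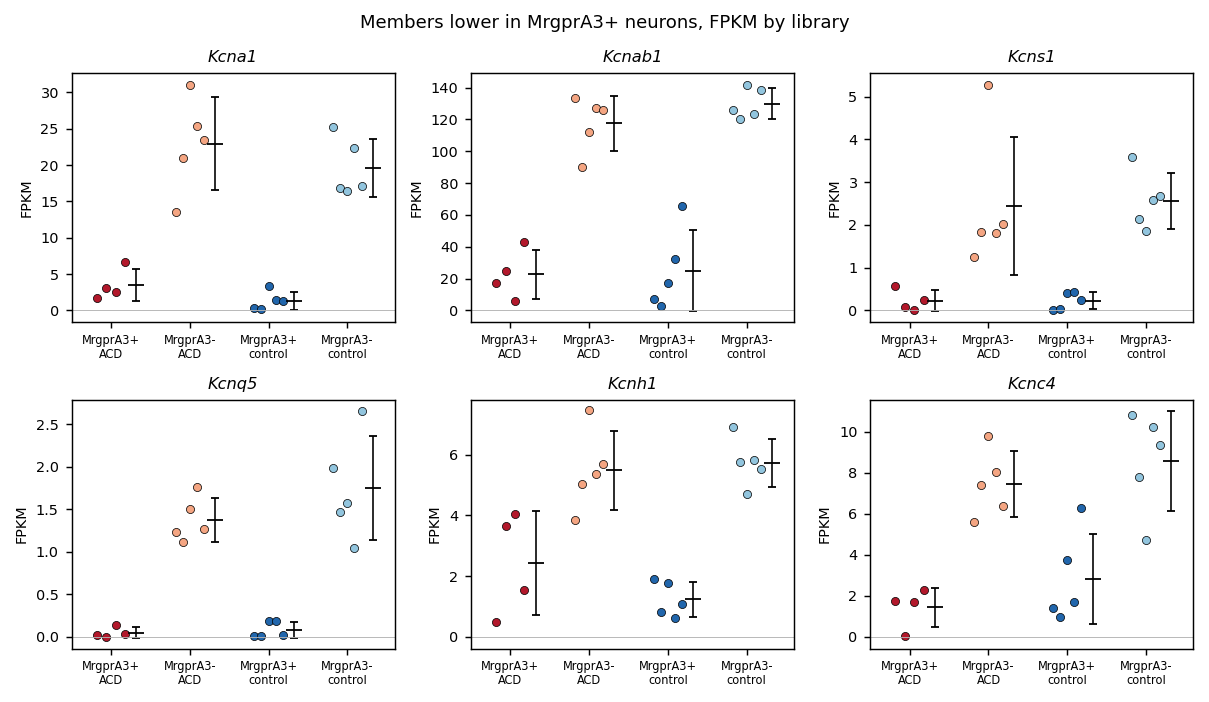
FPKM of 6 members that were lower in MrgprA3+ neurons in both treatments, in each library (points) with the mean and SD of the group (bars), on linear axes. Kcna1, Kcnab1, Kcns1 and Kcnq5 show no overlap between populations within a treatment. Kcnh1 overlaps in ACD mice and Kcnc4 in control mice.

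The Kv2 genes encode delayed rectifiers of many neurons. Kcnb2 averaged 21.9 FPKM in MrgprA3+ against 24.1 FPKM in MrgprA3- libraries of ACD mice and 20.7 FPKM in MrgprA3+ against 25.9 FPKM in MrgprA3- libraries of control mice, and did not pass in either.

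All 3 tested genes of the Kv3 family, whose fast channels allow brief spikes and rapid firing, were lower in MrgprA3+ neurons in each treatment. Kcnc4 (Kv3.4) had 1.74, 0.02, 1.68 and 2.26 FPKM in MrgprA3+ and 5.59, 7.42, 9.81, 8.02 and 6.4 FPKM in MrgprA3- libraries of ACD mice. Its control values were 1.42, 0.98, 3.73, 1.67 and 6.3 FPKM in MrgprA3+ and 10.8, 7.8, 4.7, 10.2 and 9.38 FPKM in MrgprA3- libraries, where 1 MrgprA3+ library lay within the MrgprA3- range. The differences were -1.91 (SE 0.36, adjusted p = 0.000472) in ACD mice and -1.46 (SE 0.34, adjusted p = 0.00251) in control mice. Kcnc2 (Kv3.2) stood at 0.49 to 2.42 FPKM in MrgprA3+ against 4.53 to 6.41 FPKM in MrgprA3- libraries of ACD mice and 0.63 to 4 FPKM in MrgprA3+ against 4.77 to 8.41 FPKM in MrgprA3- libraries of control mice, without overlap. It differed by -1.48 (SE 0.32, adjusted p = 0.00162) in ACD mice and -1.37 (SE 0.30, adjusted p = 0.00143) in control mice. Kcnc1 (Kv3.1) was near 1 FPKM in MrgprA3- neurons, with differences of -0.83 in ACD and -0.83 in control mice that were lost with quantile normalization.

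The abundant A-type channel gene did not pass in either treatment, while several of its partners did. Kcnd1 (Kv4.1) had 104, 78.5, 77.95 and 103 FPKM in MrgprA3+ and 91.2, 106, 103, 77.8 and 97.4 FPKM in MrgprA3- libraries of ACD mice. In control mice Kcnd1 ranged over 70.4 to 115 FPKM in MrgprA3+ and 77.6 to 114 FPKM in MrgprA3- libraries. The ranges overlap widely, and the differences of -0.07 (SE 0.14, adjusted p = 0.77) in ACD mice and -0.16 (SE 0.13, adjusted p = 0.391) in control mice did not pass. Kcnd3 (Kv4.3), a channel of non-peptidergic nociceptors in the rat, was called as lower in control mice, at -0.72 (SE 0.27, adjusted p = 0.0464), and stood at 0.01 in ACD mice. This control call held in 7 of 18 alternatives, under neither rescaling, and was lost without MrgprA3+ replicates 1 or 4 or MrgprA3- replicates 1, 2, 4 or 5 (-0.75 to -0.55, adjusted p = 0.0707 to 0.13). Kcnd3 shares 165 exon bases with Kcnd3os on the opposite strand. Kcnd2 (Kv4.2) was at or under 0.58 FPKM in every library and was not tested.

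Among the KChIPs, Kcnip1 (KChIP1) stood at 10.3, 11.6, 17.2 and 11.99 FPKM in MrgprA3+ and 22.9, 27.1, 29.9, 28.4 and 25.4 FPKM in MrgprA3- libraries of ACD mice. The control values were 7.75, 7.07, 8.94, 20.5 and 9.39 FPKM in MrgprA3+ and 22.4, 30.7, 23.1, 23.8 and 20.4 FPKM in MrgprA3- libraries, where MrgprA3+ replicate 4 just reached the MrgprA3- range. It was lower in MrgprA3+ neurons, with differences of -1.03 (SE 0.22, adjusted p = 0.00177) in ACD mice and -1.18 (SE 0.21, adjusted p = 0.000181) in control mice. Kcnip2 was lower too, averaging 168 FPKM in MrgprA3+ against 238 FPKM in MrgprA3- libraries of ACD mice and 180.3 FPKM in MrgprA3+ against 266 FPKM in MrgprA3- libraries of control mice, with differences of -0.54 (SE 0.15, adjusted p = 0.0106) in ACD mice and -0.58 (SE 0.14, adjusted p = 0.00297) in control mice. In ACD mice that call was lost without MrgprA3+ replicate 4 (-0.40, adjusted p = 0.0582). Kcnip3, also known as the calcium sensor DREAM, did not pass (-0.11 in ACD and -0.06 in control mice).

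Kcnip4, the most abundant member in MrgprA3+ neurons, had 303, 324, 258 and 299 FPKM in MrgprA3+ and 275, 170.0, 214, 224 and 224 FPKM in MrgprA3- libraries of ACD mice. In control mice it ranged over 182 to 338 FPKM in MrgprA3+ and 214 to 283 FPKM in MrgprA3- libraries. It was called as higher in ACD mice, at 0.43 (SE 0.14, adjusted p = 0.031), but not in control mice, at 0.08 (SE 0.13, adjusted p = 0.685). The call held in 9 of 17 alternatives and was lost with quantile normalization and without MrgprA3+ replicates 1, 2 or 5 or MrgprA3- replicates 2, 3 or 5 (0.34 to 0.44, adjusted p = 0.0509 to 0.0978). Kcnip4 shares 168 exon bases with an RNA gene on the opposite strand. The transmembrane partners of Kv4 and Kv2 channels were mixed: of 8 tested, 2 were higher and 1 lower in MrgprA3+ neurons of ACD mice, and 1 higher and 1 lower in control mice. Over all genes 6.84% were higher and 15.2% lower in ACD mice, and 8.64% and 18.4% in control mice. The Kv4 partner Dpp6 was the lower one in both treatments (-0.71 in ACD and -0.53 in control mice), and Amigo3 was higher in both (0.83 in ACD and 0.73 in control mice).

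The silent Kv subunits form no channel alone and modify Kv2 channels when they join them. Kcns1 (Kv9.1), a subunit of myelinated sensory neurons in the rat, was lower in MrgprA3+ neurons. It stood at 0.58, 0.07, 0.02 and 0.25 FPKM in MrgprA3+ and 1.24, 1.84, 5.28, 1.82 and 2.02 FPKM in MrgprA3- libraries of ACD mice. Control libraries had 0.02, 0.03, 0.4, 0.44 and 0.25 FPKM in MrgprA3+ and 3.58, 2.14, 1.85, 2.57 and 2.67 FPKM in MrgprA3- neurons. There was no overlap, and the differences were -1.41 (SE 0.26, adjusted p = 0.000368) in ACD mice and -1.53 (SE 0.24, adjusted p = 5.3e-05) in control mice. Kcnf1 (Kv5.1) was called as lower in both treatments, at -0.87 (SE 0.30, adjusted p = 0.0382) in ACD mice and -1.12 (SE 0.28, adjusted p = 0.00461) in control mice, with overlapping libraries. Its ACD call held in 6 of 16 alternatives and was lost without MrgprA3+ replicates 2, 4 or 5 or MrgprA3- replicates 1, 2, 3 or 5 (-0.89 to -0.74, adjusted p = 0.0567 to 0.112), and both calls were lost with quantile normalization.

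Kcns2 (Kv9.2) was called as lower in ACD mice, with 0, 0.33, 0 and 0 FPKM in MrgprA3+ and 1.29, 1.31, 0.8, 2.06 and 0.99 FPKM in MrgprA3- libraries. In control mice its values were 0.01, 0, 0.02, 0.04 and 1.65 FPKM in MrgprA3+ and 1.16, 0.99, 1.19, 0.4 and 0.71 FPKM in MrgprA3- libraries, where MrgprA3+ replicate 5 was above all the others. The differences were -1.07 (SE 0.26, adjusted p = 0.00488) in ACD mice and -0.60 (SE 0.25, adjusted p = 0.0775) in control mice, and the control difference passed without MrgprA3+ replicate 5 (-0.87, adjusted p = 0.00203). The ACD call was lost with quantile normalization. Kcns3 (Kv9.3) averaged 15.3 FPKM in MrgprA3+ against 12.3 FPKM in MrgprA3- libraries of ACD mice and 14.4 FPKM in MrgprA3+ against 13.6 FPKM in MrgprA3- libraries of control mice and did not pass, at 0.25 in ACD and 0.06 in control mice. Kcnv1 (Kv8.1) was higher in MrgprA3+ neurons of ACD mice, at 13.3 to 21.7 FPKM against 6.89 to 11.5 FPKM in MrgprA3- libraries (0.78 (SE 0.22, adjusted p = 0.0114)). In control mice its difference of 0.53 (SE 0.20, adjusted p = 0.0578) missed the threshold, and it passed under both rescalings and without MrgprA3+ replicate 2 (0.60, adjusted p = 0.0403) or MrgprA3- replicate 5 (0.63, adjusted p = 0.0381). The 4 Kcng genes were not tested.

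Kv7 channels carry the M-current, which opens below spike threshold and restrains repetitive firing. Kcnq5 (Kv7.5) was at or near 0 in every MrgprA3+ library, with 0.02, 0, 0.14 and 0.03 FPKM in ACD mice against 1.23, 1.11, 1.51, 1.76 and 1.27 FPKM in MrgprA3- libraries. Control mice had 0.01, 0.01, 0.18, 0.18 and 0.02 FPKM in MrgprA3+ and 1.99, 1.47, 1.58, 1.04 and 2.66 FPKM in MrgprA3- libraries. The populations did not overlap, and the differences were -1.18 (SE 0.19, adjusted p = 9.62e-05) in ACD mice and -1.32 (SE 0.18, adjusted p = 7.42e-06) in control mice. Kcnq3 (Kv7.3), an M-channel subunit, did not pass at 0.46 in ACD and 0.81 in control mice, and with quantile normalization it passed as higher in control mice, as it did without MrgprA3+ replicate 3 (0.99, adjusted p = 0.0299). Kcnq1 was not tested.

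The EAG and ERG channels, voltage-gated channels related to the cardiac hERG channel, were lower in MrgprA3+ neurons. All 4 tested genes were called in ACD mice and 3 in control mice. Kcnh1 (EAG1) had 0.47, 3.66, 4.06 and 1.54 FPKM in MrgprA3+ and 3.86, 5.04, 7.47, 5.37 and 5.71 FPKM in MrgprA3- libraries of ACD mice. Its control levels were 1.89, 0.82, 1.78, 0.61 and 1.08 FPKM in MrgprA3+ and 6.92, 5.75, 4.71, 5.81 and 5.52 FPKM in MrgprA3- libraries. MrgprA3+ libraries overlapped the other population in ACD mice and not in control mice. The differences were -1.06 (SE 0.30, adjusted p = 0.0137) in ACD mice and -1.62 (SE 0.29, adjusted p = 0.000162) in control mice, and in ACD mice the call was lost without MrgprA3+ replicate 1 (-0.71, adjusted p = 0.0748).

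Kcnh2 (ERG1, the mouse hERG gene) stood at 0.01, 0.03, 0.05 and 2.39 FPKM in MrgprA3+ and 2.03, 3.67, 5.34, 4.39 and 1.79 FPKM in MrgprA3- libraries of ACD mice. Control values were 0.01, 0.02, 0.39, 1.48 and 0.02 FPKM in MrgprA3+ and 3.27, 2.87, 1.99, 3.35 and 3.65 FPKM in MrgprA3- libraries. A single MrgprA3+ library of ACD mice reached the MrgprA3- range, and the differences were -1.61 (SE 0.35, adjusted p = 0.0018) in ACD mice and -1.62 (SE 0.33, adjusted p = 0.000735) in control mice. Kcnh7 (ERG3) was lower, with differences of -0.78 (SE 0.26, adjusted p = 0.0359) in ACD mice and -1.42 (SE 0.25, adjusted p = 0.000155) in control mice, the ACD call holding in 8 of 17 alternatives and under neither rescaling. That call was lost without MrgprA3+ replicates 1, 2 or 5 or MrgprA3- replicates 1, 4 or 5 (-0.78 to -0.63, adjusted p = 0.0542 to 0.119). It shares 696 exon bases with Gca on the opposite strand. Kcnh6 (ERG2), the most abundant of the family, averaged 12.1 FPKM in MrgprA3+ against 22.7 FPKM in MrgprA3- libraries of ACD mice and 15.02 FPKM in MrgprA3+ against 22.5 FPKM in MrgprA3- libraries of control mice. It was called in ACD mice, at -0.92 (SE 0.27, adjusted p = 0.0153), and missed the threshold in control mice, at -0.61 (SE 0.25, adjusted p = 0.0759). The ACD call was lost without MrgprA3+ replicate 2 (-0.71, adjusted p = 0.0738), and the control difference passed without MrgprA3+ replicate 2 (-0.82, adjusted p = 0.0127) or MrgprA3- replicate 5 (-0.73, adjusted p = 0.0491).

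The single-span Kcne subunits modify Kv channels. Kcne4, which inhibits several of them, was almost absent from MrgprA3+ neurons: it had 0, 0, 0.05 and 0.2 FPKM in MrgprA3+ and 0.88, 2.05, 2.58, 3.33 and 1.94 FPKM in MrgprA3- libraries of ACD mice. In control mice the Kcne4 values were 0, 0.04, 0, 0 and 0 FPKM in MrgprA3+ and 1.15, 0.74, 0.69, 1.43 and 1.87 FPKM in MrgprA3- libraries. All MrgprA3- libraries were higher, and the differences were -1.52 (SE 0.22, adjusted p = 2.76e-05) in ACD mice and -1.08 (SE 0.21, adjusted p = 0.000486) in control mice. The control call was lost with quantile normalization. Kcne3 varied widely among MrgprA3+ libraries, at 0.46 to 5.55 FPKM in ACD mice and 0 to 4.3 FPKM in control mice, and did not pass. Kcne1l did not pass, except without MrgprA3+ replicate 5 (-0.77, adjusted p = 0.00789) in control mice, and Kcne2 was listed at 0 in all 19 libraries.

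Inward rectifiers were low throughout, and none of the 15 averaged over 6.26 FPKM in any group. Kcnj12 (Kir2.2), a rectifier that holds the resting potential, was called as higher in MrgprA3+ neurons of ACD mice, with 4.62, 4.42, 10.01 and 5.04 FPKM against 1.96, 2.4, 3.66, 2.83 and 2.29 FPKM in MrgprA3- libraries. Its control values overlapped, at 4.74 to 8.84 FPKM in MrgprA3+ and 2.64 to 6.17 FPKM in MrgprA3- libraries. The differences were 0.90 (SE 0.26, adjusted p = 0.0147) in ACD mice and 0.50 (SE 0.25, adjusted p = 0.143) in control mice, and the ACD call was lost without MrgprA3+ replicate 4 (0.67, adjusted p = 0.0722). It passed in control mice with quantile normalization. Kcnj9 (GIRK3), a G protein-gated rectifier, was lower in both treatments (-0.89 in ACD and -0.64 in control mice) at low levels, with 0 to 0.02 FPKM in MrgprA3+ against 0.19 to 1.13 FPKM in MrgprA3- libraries of ACD mice and 0 to 0.17 against 0.06 to 1.25 FPKM in control mice, and neither call held with quantile normalization. Its control call was lost without MrgprA3- replicate 3 (-0.54, adjusted p = 0.0869) or MrgprA3- replicate 4 (-0.52, adjusted p = 0.0842). Its partner Kcnj3 (GIRK1) did not pass (-0.78 (SE 0.35, adjusted p = 0.114) in ACD mice and -0.75 (SE 0.33, adjusted p = 0.0952) in control mice), except without MrgprA3+ replicate 3 (-1.01, adjusted p = 0.0205) in control mice.

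Kcnj11, the pore of the ATP-sensitive channel that couples metabolism to firing, averaged 3.81 FPKM in MrgprA3+ against 2.1 FPKM in MrgprA3- libraries of ACD mice and 4.59 FPKM in MrgprA3+ against 2.18 FPKM in MrgprA3- libraries of control mice, and did not pass. It passed as higher in control mice with quantile normalization and without MrgprA3+ replicate 5 (0.99, adjusted p = 0.0246). Its sulfonylurea receptor partner Abcc8 did not pass either (0.78 in ACD and 0.59 in control mice). Kcnj10 (Kir4.1), the rectifier of satellite glia, averaged 0.68 FPKM in MrgprA3+ against 0.82 FPKM in MrgprA3- libraries of ACD mice and 1.05 FPKM in MrgprA3+ against 1.14 FPKM in MrgprA3- libraries of control mice. Neither it nor Kcnj16 passed.

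Of the RNAs that overlap channel genes, Kcnmb4os1 had 3.73, 2.58, 1.65 and 2.09 FPKM in MrgprA3+ and 1.27, 2.09, 1.31, 2.72 and 2.18 FPKM in MrgprA3- libraries of ACD mice. In control mice Kcnmb4os1 had 1.62, 9.18, 5.41, 4.74 and 5.79 FPKM in MrgprA3+ and 2.24, 2.53, 1.66, 1.85 and 2.43 FPKM in MrgprA3- libraries. It was called in control mice, at 0.90 (SE 0.28, adjusted p = 0.0208), and not in ACD mice, at 0.26 (SE 0.30, adjusted p = 0.574). The control call was lost without MrgprA3+ replicate 2 (0.70, adjusted p = 0.066) or MrgprA3- replicate 3 (0.84, adjusted p = 0.0545). Of its 824 exon bases 355 are shared with Kcnmb4, and without strand the reads of this stretch cannot be told apart. Kcnq1ot1, the imprinted RNA antisense to Kcnq1, was at 0.98 to 1.01 FPKM in MrgprA3+ against 0.49 to 0.59 FPKM in MrgprA3- libraries of ACD mice and 0.93 to 1.33 FPKM in MrgprA3+ against 0.54 to 0.65 FPKM in MrgprA3- libraries of control mice. Its libraries did not overlap, yet its differences of 0.38 (SE 0.17, adjusted p = 0.108) in ACD mice and 0.41 (SE 0.16, adjusted p = 0.0541) in control mice missed the threshold on this scale. It passed as higher in MrgprA3+ neurons with quantile normalization in both treatments and with median-ratio rescaling, and without MrgprA3+ replicate 4 (0.45, adjusted p = 0.0414), in control mice.

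The 28 members that were not tested stayed at or under 1.87 FPKM in every library. Of these, 8 reached 1 FPKM in some library and 1 was at 0 throughout. Without the filter 79 members were tested, of which 34 were called in ACD mice, 6 higher and 28 lower, and 38 in control mice, 7 higher and 31 lower. That is 43.0% of the members in ACD and 48.1% in control mice, against 15.9% and 19.4% of all 18646 genes then tested. The untested members called then, such as Kcng4 and Kcnh8 in both treatments, were all lower in MrgprA3+ neurons.

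Markers of other cells are given beside the potassium channels. Of all genes 15.2% were lower and 6.84% higher in MrgprA3+ neurons of ACD mice, and 18.4% and 8.64% in control mice. Of 13 tested markers of large diameter neurons, a class to which Kv1.1, Kv3.1 and Kv9.1 are commonly assigned, none was higher in MrgprA3+ neurons, and 10 were lower in ACD mice and 12 in control mice. Their summed level was 415 to 601 FPKM in MrgprA3+ against 832 to 1133 FPKM in MrgprA3- libraries of ACD mice, and 367 to 559 against 769 to 1001 FPKM in control mice. Of 11 tested satellite glia markers 4 were lower in ACD mice and 8 in control mice, with summed levels of 330.0 to 461 FPKM in MrgprA3+ against 407 to 578 FPKM in MrgprA3- libraries of ACD mice and 221 to 420.3 FPKM in MrgprA3+ against 481 to 598 FPKM in MrgprA3- libraries of control mice. Schwann cell markers, 8 tested, had 1 higher and 4 lower in ACD mice and 1 higher and 5 lower in control mice, with sums of 1507 to 1634 FPKM in MrgprA3+ against 1244 to 1343 FPKM in MrgprA3- libraries of ACD mice and 1347 to 1619.9 FPKM in MrgprA3+ against 1192 to 1465 FPKM in MrgprA3- libraries of control mice. The single higher gene, Pmp22, made up most of these sums, and the other 11 markers summed to 182 to 247 FPKM in MrgprA3+ against 386 to 465.9 FPKM in MrgprA3- libraries of ACD mice and 161 to 208 FPKM in MrgprA3+ against 359 to 416 FPKM in MrgprA3- libraries of control mice. Of the macrophage markers 3 were tested, 3 of them lower in ACD and 2 in control mice, with sums of 0.26 to 0.91 FPKM in MrgprA3+ against 5.19 to 27.1 FPKM in MrgprA3- libraries of ACD mice and 0.18 to 8.21 FPKM in MrgprA3+ against 4.02 to 15.5 FPKM in MrgprA3- libraries of control mice. The part of these cells in the channel differences was not tested.

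Related channels outside the rule were also counted. Of 8 Kcnk leak channels tested 1 was higher and 3 lower in MrgprA3+ neurons, in each treatment. Over all genes 6.84% were higher and 15.2% lower in ACD mice, and 8.64% and 18.4% in control mice. Of the HCN channels and their partner Pex5l, 3 were tested, 1 was lower in ACD mice (Pex5l, -0.60) and none passed in control mice.

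The second question is whether dermatitis changed potassium channel RNA within a population. The differences are ACD minus control, fitted to the libraries of that population alone. In MrgprA3+ neurons no member passed in limma, as 0% of all genes did, and 4 members had an unadjusted p below 0.05, against 5.54% of all genes. The smallest p belonged to Kcnmb4, with 5.14, 2.72, 1.72 and 1.69 FPKM in ACD mice against 2.39, 10.2, 5.69, 6.1 and 8.04 FPKM in control mice. The groups overlap, and its difference was -0.95 (SE 0.40, unadjusted p = 0.0288, adjusted p = 0.875). Kcnmb4os1, which shares exon bases with Kcnmb4 on the opposite strand, differed by -0.76 (SE 0.40, unadjusted p = 0.0721, adjusted p = 0.88). Kcnn1 had 18.01, 15.7, 9.64 and 9.96 FPKM in ACD mice against 14.7, 30.3, 25.1, 15.6 and 22.9 FPKM in control mice, also with an overlap, and differed by -0.66 (SE 0.28, unadjusted p = 0.0289, adjusted p = 0.875). The Kcna1 libraries given above overlapped as well and differed by 1.01 (SE 0.44, unadjusted p = 0.0369, adjusted p = 0.875), and Kcnmb2 by 0.60 (SE 0.28, unadjusted p = 0.0464, adjusted p = 0.875). Kcnmb1 was at -0.06 (SE 0.14).

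In MrgprA3- neurons no member passed in limma, while 0.108% of all genes did (13 genes), 0.1% as higher and 0.00834% as lower, and 6 members had an unadjusted p below 0.05, against 8.44% of all genes. The smallest p belonged to Kcne3, with 4.28, 2, 1.22, 2.68 and 1.61 FPKM in ACD mice against 0.43, 1.45, 1.17, 0.3 and 0.66 FPKM in control mice. The groups overlapped at their edge, and the difference was 0.87 (SE 0.23, unadjusted p = 0.00175, adjusted p = 0.36). Others in that set were Kcnd3 (-0.58), Kcnj12 (-0.49), Kcne4 (0.51), Kcnip3 (-0.34) and Kcnab2 (0.23), with adjusted p between 0.509 and 0.557.

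Whether the effect of dermatitis differed between the populations was asked by the interaction. No member passed in limma, as 0% of all genes did, and 1 had an unadjusted p below 0.05, against 4.61% of all genes. That was Kcnab2, at -0.49 (SE 0.15, unadjusted p = 0.00417, adjusted p = 0.994). Its libraries were at 46, 43.6, 52.9 and 41.9 FPKM in MrgprA3+ and 77.4, 93.3, 94.4, 80.1 and 91.4 FPKM in MrgprA3- neurons of ACD mice. In control mice they were at 50.3, 56.2, 56.95, 62.3 and 49.9 FPKM in MrgprA3+ and 83.9, 72.1, 73.1, 65.9 and 75.4 FPKM in MrgprA3- neurons. MrgprA3+ libraries were below all MrgprA3- libraries in both treatments, and the gap was wider in ACD mice without passing the adjustment. A p that misses the threshold does not show that dermatitis left these genes alone. Members called in 1 treatment alone, such as Kcnn2 (interaction -0.85 (SE 0.48, adjusted p = 0.994)), are likewise not shown to differ between treatments.

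**Figure D5:**
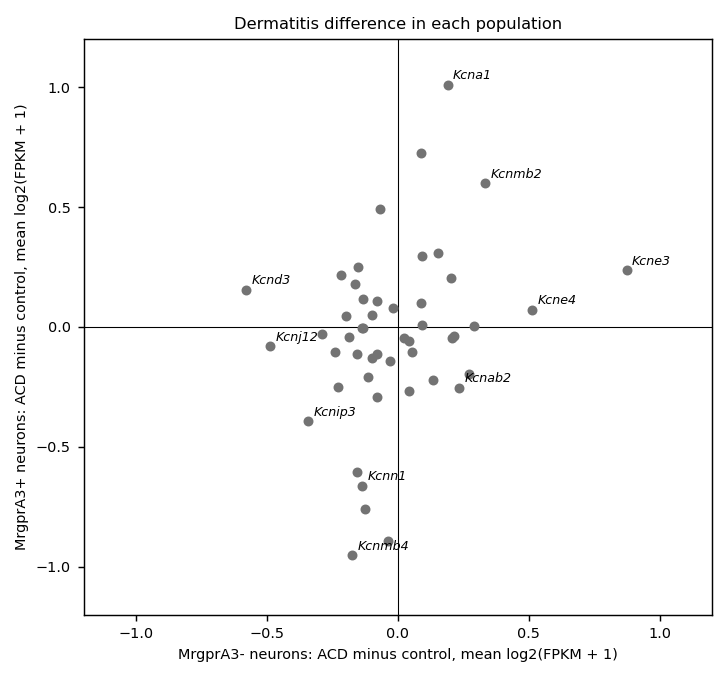
Dermatitis difference (ACD minus control, mean log2(FPKM + 1)) of 49 tested members in MrgprA3+ neurons (vertical) and in MrgprA3- neurons (horizontal). Names mark members with an unadjusted p below 0.05 in either population or for the interaction, and none passed the adjustment. The points spread further along the vertical axis, up to 1.01 for Kcna1 and down to -0.95 for Kcnmb4.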

How the data were processed

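The authors deposited 1 table of FPKM values per gene and library with 2 decimals, per the file headers. Reads were aligned with Bowtie2 to mm9, per the submitters' processing notes, with version, annotation, quantification program and strand not given in the sources used here. Libraries were matched to labels by column header. Of 33 damaged symbols 25 were repaired through their identifiers. Depth was estimated from the spacing of values up to 0.6 FPKM of 1080 genes of 300 to 900 bp (GRCm38 lengths), of which 75.6% to 85.0% lay within 0.2 of a whole step; the step was chosen to fit them, so depths are approximate.

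Genes reaching 1 FPKM in 4 or more libraries were tested as log2(FPKM + 1) with limma 3.58.1 (trend and robust options, statmod 1.5.0, R 4.3.3), two-sided, with Benjamini-Hochberg adjustment over 11996 genes and a threshold of 0.05. Population comparisons and the interaction used all 19 libraries, dermatitis comparisons those of 1 population. The fits, apart from the interaction, were tried on simulated log2 values with independent normal noise. Changes were added only to genes at higher levels, so the trial does not cover members near 1 FPKM. The labels give no separate cultures or mice per library number, so p-values measure the spread between these libraries.

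Alternatives were a pseudocount of 0.1, no filter, a filter of 5 FPKM, quantile normalization, median-ratio rescaling, a replicate block, other sets of libraries in the fit, no robust option, and leaving out each library. The members and lists were chosen with earlier results of these data known. Members named with values were Kcna1 and Kcnmb1, members called with a difference of at least 1 in log2, the most abundant member of each subfamily and the smallest p for dermatitis and interaction. The remaining members were named after their values were seen, to account for the calls. A few genes are counted here but not reported individually.

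Promoter sequence came from RefSeq (GRCm38.p6), where 37 of the 52 tested members had an entry; no gene coordinates of mm9 were used.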

Additional observations from a re-analysis of the deposited data

Results flagged for a closer look

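Within groups of 4 or 5 libraries, 1 library met Dixon's criterion on log2(FPKM + 1) in 10 of 124 combinations of named member and group. For normally distributed values chance gives about 1 in 20. That rate does not hold for groups listed at 0 in all libraries but 1. There any value above 0 is flagged, as for Kcns2 in ACD mice and Kcne4 below. In MrgprA3+ neurons of ACD mice, Kcnc4 was low in replicate 2 at 0.02 FPKM, against 1.68 to 2.26 FPKM in the other libraries. In the same group Kcnf1 was high in replicate 1 at 1.51 FPKM (others 0.01 to 0.14), Kcnh2 in replicate 5 at 2.39 FPKM (others 0.01 to 0.05), Kcnj12 in replicate 4 at 10.01 FPKM (others 4.42 to 5.04) and Kcns2 in replicate 2 at 0.33 FPKM (others 0). In MrgprA3- neurons of ACD mice, Kcnc2 was low in replicate 4 at 4.53 FPKM (others 5.87 to 6.41) and Kcns1 high in replicate 3 at 5.28 FPKM (others 1.24 to 2.02). In MrgprA3+ neurons of control mice, Kcnip1 was high in replicate 4 at 20.5 FPKM (others 7.07 to 9.39), Kcns2 in replicate 5 at 1.65 FPKM (others 0 to 0.04) and Kcne4 in replicate 2 at 0.04 FPKM (others 0).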

How the results depend on the processing

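Of the member calls, 15 of 31 in ACD mice and 20 of 29 in control mice held under every alternative that could test them. Leaving out 1 library gave 26 to 29 called members in ACD mice and 26 to 32 in control mice, where 17.4% to 24.9% and 21.5% to 27.7% of all genes were called. With a filter of 5 FPKM 28 members were tested, of which 19 (67.9%) were called in ACD and 15 (53.6%) in control mice, against 24.2% and 29.5% of all genes. No member was called for dermatitis or the interaction under any alternative. Over all genes, dermatitis in MrgprA3+ neurons gave 42 calls when fitted with all 19 libraries and 0 to 1 without single libraries (1 without control replicate 2), against 0. In MrgprA3- neurons the 13 calls became 6 with a pseudocount of 0.1, 0 with no filter, 0 with all 19 libraries, and 4 to 13 without single libraries (8 and 6 without control replicates 1 and 2, and 7, 5, 4 and 6 without ACD replicates 1, 2, 3 and 5). The interaction gave 0 to 1 (1 without MrgprA3+ ACD replicate 5).

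Changes of sign among named members concerned differences that had not passed. Median-ratio rescaling gave 0.0125 for Kcna6 in control mice, and 0.0288 for Kcnd1, 0.0064 for Kcne3 and 0.0475 for Kcnmb4 in ACD mice. Quantile normalization gave 0.22 for Kcne3 and 0.24 for Kcnmb4 in ACD mice and -0.0237 for Kcnip4 in control mice. Leaving out single libraries gave -0.28 to 0.0195 for Kcnb2, -0.42 to 0.30 for Kcne3 and -0.28 to 0.11 for Kcnmb4 in ACD mice, and -0.01 to 0.21 for Kcnip4 and -0.0905 to 0.24 for Kcns3 in control mice. The cause was not tested.

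With the replicate number as a block, 29 members were called in ACD mice (Kcnf1 among the lost) and 27 in control mice (Kcnd3 among the lost), against 20% and 26% of all genes, and Kcnmb4 in ACD mice stood at 0.0575. Over all genes the block gave 2 calls for dermatitis in MrgprA3- neurons. Deviations from the group means of same-numbered libraries of 1 treatment correlated at -0.06 to 0.19. For control 2 and 5 and ACD 1, 4 and 5 this exceeded the highest correlation with another number (0.193 against 0.0496 for ACD 5). For control 1, 3 and 4 and ACD 2 it did not (-0.0563 against 0.1514 for control 1). Whether the number pairs the libraries thus stays undecided.

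Depth limits the members near 1 FPKM, where 1 FPKM stood for as few as 8.4 fragments.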
